A study of Mus musculus with 3 samples.

Results

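The regions described here are stretches of open chromatin that were called in mouse embryonic stem cells expressing Halo-Sox2a and in neither of the other 2 libraries of the study. They were chosen by merging peaks of the 3 deposited lists that overlapped by at least 1 bp into union regions on chromosomes 1 to 19 and X, and by keeping those with a peak in the Halo-Sox2a list and in no other. This gave 15993 of 130604 union regions, or 12.2% (12.1 to 12.4%). Each of them was a single peak of the 83956 Halo-Sox2a peaks on these chromosomes. By the same rule, 31767 regions (24.3%) were found with Halo-Sox2 only and 13272 (10.2%) in the control only. Since presence in the lists chose the regions, these counts are a description.

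All 3 lines derive from CGR8, a mouse embryonic stem cell line, and were grown with serum, LIF, CHIR99021 and PD184352. Line SES4.1 was induced with 300 ng/mL doxycycline for 20 h to express Halo-Sox2, and line SES5.1 with 70 ng/mL for 20 h to express Halo-Sox2a. The labels name Sox2a without describing it. Both were stained with 50 nM of a SiR dye that binds the Halo tag and sorted in 1 common window of intensity, so each Halo protein is represented by 1 line at 1 window of protein level. The control line, SES11, carries no inducible transgene, and its dose of doxycycline and its staining and sorting are not given. ATAC-seq, in which the Tn5 transposase cuts open DNA, was run on about 50000 cells a library, with 1 library a group. With no replicates, no difference between groups can be set against replicate error, no p-value is given, and a line, its dose and its library cannot be told apart. Intervals in brackets are Wilson 95% intervals, which cover counting error only. Sequencing depth is unknown here, so an absent peak is not evidence of closed chromatin.

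Sox2 binds DNA through an HMG box, which recognises CATTGT and close variants, often next to an OCT site bound by Oct4 (Pou5f1). It can bind sites on nucleosomes and is therefore called a pioneer factor. In embryonic stem cells it is known, with Oct4 and Nanog, for holding enhancers of the pluripotency genes open. As a check of cell identity, peaks over or within 1 kb of the genes were found for 7 of 7 stem cell markers in the Halo-Sox2a and control lists and for 6 of 7 in the Halo-Sox2 list, where Nanog had none. Each of the markers looked up for fibroblasts (5 genes), blood (2), primitive endoderm (3) and trophoblast (3) also had a peak in all 3 lists, so the presence of peaks did not separate cell types.

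The sequences below are the 250 bases upstream of starts whose RefSeq promoter windows were overlapped by such a region, shown because promoters are the only places where sequence and peaks could be read together. They are from GRCm38.p6, on the strand of the gene, and capitals mark every match to the motifs searched. The first 3 are the starts of non-coding RNA genes with the longer SOX motif, CATTGTT, on either strand. Gm39902 (chr2:106955531-106955780, plus strand) was covered in full by a peak of score 65. At Gm13522 (chr2:52378344-52378593, plus strand) and Gm30974 (chr1:12061034-12061283, minus strand) the peak covered 141 and 64 of the bases shown. In both, the longer motif lay outside the peak. The other CATTGT of Gm13522 lay inside its peak.
Gm39902: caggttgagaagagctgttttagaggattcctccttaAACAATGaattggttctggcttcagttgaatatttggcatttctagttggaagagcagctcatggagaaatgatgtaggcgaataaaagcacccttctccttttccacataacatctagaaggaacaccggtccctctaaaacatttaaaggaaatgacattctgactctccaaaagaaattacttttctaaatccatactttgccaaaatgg
Gm13522: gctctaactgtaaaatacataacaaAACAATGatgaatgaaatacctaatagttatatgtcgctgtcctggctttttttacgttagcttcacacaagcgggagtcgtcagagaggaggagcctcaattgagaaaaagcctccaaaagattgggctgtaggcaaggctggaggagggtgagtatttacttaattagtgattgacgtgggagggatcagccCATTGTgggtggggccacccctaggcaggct
Gm30974: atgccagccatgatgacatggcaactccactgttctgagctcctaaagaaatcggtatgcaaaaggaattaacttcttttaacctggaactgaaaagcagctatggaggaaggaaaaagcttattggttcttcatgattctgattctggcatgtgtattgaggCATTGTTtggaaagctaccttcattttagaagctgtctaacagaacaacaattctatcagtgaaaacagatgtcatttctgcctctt

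Casp14, a caspase of skin differentiation (chr10:78718294-78718543, minus strand), and Cd80, a T-cell costimulator (chr16:38458683-38458932, plus strand), show the KLF motif GGGTGTGG, on the strand shown and on the other strand. Chit1, a chitinase (chr1:134110992-134111241, plus strand), is the start of a protein-coding gene with the highest-scoring peak and holds an AP-1 motif, TGACTCA on the other strand.
Casp14: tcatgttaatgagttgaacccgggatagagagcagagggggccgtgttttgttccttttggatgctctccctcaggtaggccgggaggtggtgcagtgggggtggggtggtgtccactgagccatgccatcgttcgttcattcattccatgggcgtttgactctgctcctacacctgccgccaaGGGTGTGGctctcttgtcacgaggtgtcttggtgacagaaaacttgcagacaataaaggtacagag
Cd80: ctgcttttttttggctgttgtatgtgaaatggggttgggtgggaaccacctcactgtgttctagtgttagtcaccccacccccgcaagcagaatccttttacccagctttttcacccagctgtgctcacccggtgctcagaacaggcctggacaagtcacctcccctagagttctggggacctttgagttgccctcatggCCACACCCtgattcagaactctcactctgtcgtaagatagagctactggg
Chit1: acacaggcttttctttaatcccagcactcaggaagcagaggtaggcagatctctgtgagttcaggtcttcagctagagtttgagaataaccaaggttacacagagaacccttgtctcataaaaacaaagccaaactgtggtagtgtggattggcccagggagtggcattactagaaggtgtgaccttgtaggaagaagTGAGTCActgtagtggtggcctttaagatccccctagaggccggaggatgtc

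Otx2, a homeobox factor of formative cells (chr14:48662735-48662984, minus strand), and Pim1, a kinase induced by LIF (chr17:29492835-29493084, plus strand), are the pair of listed stem cell genes with such a peak over a promoter window. Their capitals are a GATA motif, AGATAA on the other strand, and an E-box, CACGTG. Prr5l (chr2:101883028-101883277, minus strand) is given for contrast: its peak was found with Halo-Sox2 only, and its sequence has CATTGT and, on the other strand, the longer motif.
Otx2: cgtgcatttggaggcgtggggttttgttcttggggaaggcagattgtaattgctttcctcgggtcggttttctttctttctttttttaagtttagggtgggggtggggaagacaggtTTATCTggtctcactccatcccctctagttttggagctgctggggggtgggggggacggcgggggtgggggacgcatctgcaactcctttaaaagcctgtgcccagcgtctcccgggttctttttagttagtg
Pim1: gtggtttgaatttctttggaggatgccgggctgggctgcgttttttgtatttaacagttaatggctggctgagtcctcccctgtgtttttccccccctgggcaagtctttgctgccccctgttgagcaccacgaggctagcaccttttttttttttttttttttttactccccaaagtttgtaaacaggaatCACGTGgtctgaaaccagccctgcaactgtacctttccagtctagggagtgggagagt
Prr5l: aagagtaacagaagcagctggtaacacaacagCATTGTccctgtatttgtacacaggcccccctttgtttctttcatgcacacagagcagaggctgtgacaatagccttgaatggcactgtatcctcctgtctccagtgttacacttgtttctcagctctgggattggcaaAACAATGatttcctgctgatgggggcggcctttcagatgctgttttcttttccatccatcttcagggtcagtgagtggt

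The regions found with Halo-Sox2a only were weak and narrow peaks. The score is the authors' value for each peak and ranks peaks within 1 list; its scale is not stated. Scores ran from 13, the lowest of each list, to 496, with a median of 41 (quartiles 26 and 65) in a list that reached 12707. The median region stood at percentile 19.3 of its list, and 9.02% (8.58 to 9.47%) were above the list's median score of 101. At the lowest score stood 444 regions, 2.78%, against 0.758% of all Halo-Sox2a peaks. The share of Halo-Sox2a peaks that were found in no other list was 57.0% in the lowest decile of score and 0.0357% (3 of 8414) in the highest. The median width was 293 bp (193 to 1574 bp), against 377 bp for regions with Halo-Sox2 only, 277 bp for the control only and 843 bp for regions of all 3 lists. The last value is the span of merged peaks, so it is not a like measure. At like scores they were also narrower than the other Halo-Sox2a peaks, with medians of 249 and 276 bp in the lowest decile and 361 and 515 bp in decile 6. A wide peak overlaps others more readily, so the rule itself favours narrow peaks, and these widths are a description. At the edge of the rule, 47 regions lay within 10 bp of a peak of another list, with a median score of 27, and 67 Halo-Sox2a peaks were left out through an overlap of 1 to 10 bp, with a median score of 29.

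**Figure D1:**
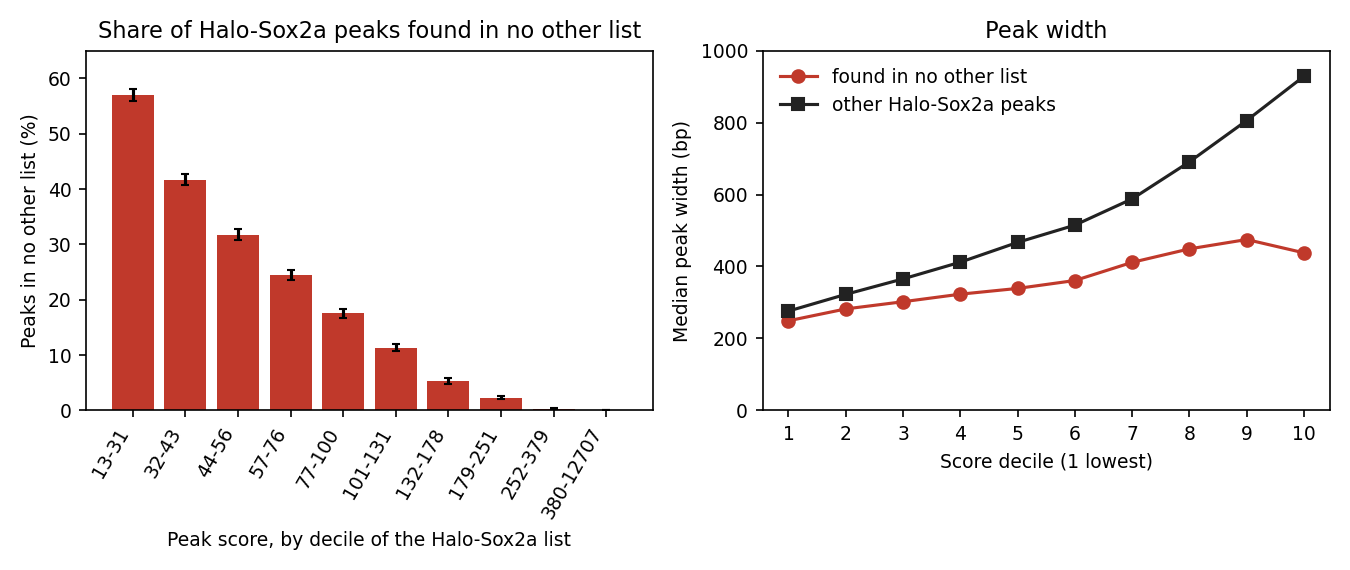
Left, share of Halo-Sox2a peaks found in no other list (%, bars with Wilson 95% intervals), by decile of peak score. Right, median peak width (bp) by decile of score, for these peaks (circles) and all other Halo-Sox2a peaks (squares). The share falls from 57.0% to 0.0357%, and the circles lie below the squares in each decile.

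The 10 highest scores reached percentile 94.6 of the list and lay mostly inside or near genes with unrelated roles. The highest, score 496, lay outside genes at chr6:82666488-82667089, about 13.9 kb upstream of Pole4, a subunit of DNA polymerase epsilon. The next, score 435, lay in Slc44a5, a choline transporter-like gene (chr3:154072107-154072508). The third, score 383, lay in Gopc, which encodes a Golgi PDZ protein (chr10:52343426-52343863). Others lay in Arhgap32, a GTPase-activating protein (chr9:32257578-32258205, score 315), St13, a cochaperone of Hsp70 (chr15:81370348-81370707, 302), and Tcf4, a bHLH factor (300). Another 2 lay in the non-coding RNA genes Gm40908 (326) and Gm34061 (300), and 1 outside genes on chromosome 13 (321). The region on X (chrX:170021317-170021532, score 317) was 2628 bp from Erdr1 and only 216 bp wide. The 3 widest regions did not score highly: 1574 bp wide on chromosome 8 with score 13, 1569 bp in the galactokinase gene Galk2 with score 25, and 1535 bp in Glt1d1 with score 135.

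Most of the regions stood apart from peaks of the other lists. The median gap to the nearest peak of either was 5020 bp; 15.8% (15.3 to 16.4%) had one within 1 kb and 73.6% within 10 kb. They lay nearer to chromatin open in all 3 libraries than the other single-list classes did: the median distance to such a region was 12.9 kb, against 19.2 kb for Halo-Sox2 only and 18.2 kb for control only. The value was close to the 12.7 kb of regions shared by Halo-Sox2 and Halo-Sox2a. The nearest other region of the same kind was a median of 35.4 kb away. The class with more regions had the shorter distance (Halo-Sox2 only, 21.5 kb) and the smaller one the longer (control only, 53.5 kb).

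The regions were distal, but less far from gene starts than those of Halo-Sox2 only. Distances to starts use the RefSeq promoter table, which has no entry on chromosome 18, so they cover 15490 regions. The median distance to a start was 23.2 kb (quartiles 9.23 and 59.2 kb), against 34.8 kb for Halo-Sox2 only, 33.4 kb for control only and 23.4 kb for regions of both Halo proteins. Within 1 kb of a start lay 3.45% (3.17 to 3.75%), against 2.33% (2.17 to 2.5%) for Halo-Sox2 only, 4.12% (3.79 to 4.48%) for control only and 28.7% for regions of all 3 lists. For all union regions it was 11.6%. From 5 to 25 kb, the share was higher than for either other single-list class: 25.1% (24.4 to 25.7%) lay 10 to 25 kb from a start, against 20.5% and 20.4%. The other classes with Halo-Sox2a peaks were closer, with 23.6% (22.8 to 24.4%) for both Halo proteins and 23.4% (22.7 to 24.2%) for Halo-Sox2a and control. In the lowest decile of score 3.76% (3.23 to 4.36%) of these regions and 7.88% (7.02 to 8.85%) of other Halo-Sox2a peaks lay within 1 kb.

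**Figure D2:**
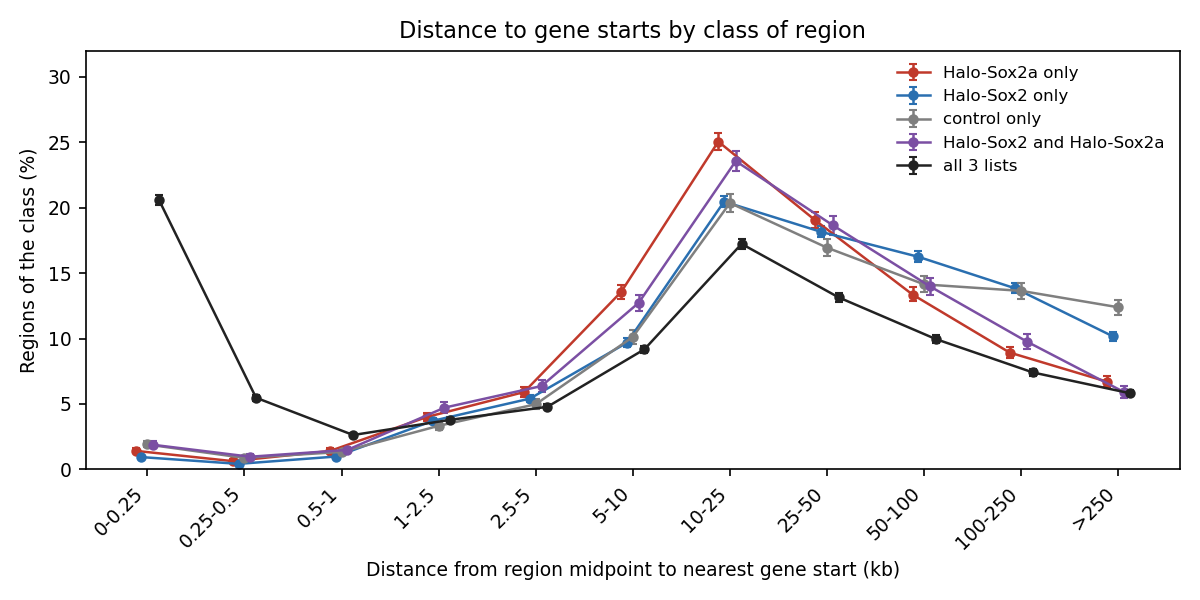
Share of the regions of each class (%, points with Wilson 95% intervals) by distance from the region's midpoint to the nearest gene start (kb). Regions with Halo-Sox2a only (red) peak at 10 to 25 kb with 25.1%, above the single-list classes of Halo-Sox2 and control, and lie near the bottom within 1 kb. Regions of both Halo proteins have 23.6% at 10 to 25 kb.

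By midpoint, 60.4% (59.7 to 61.2%) lay inside a gene, near the 60.5% of all union regions, and 52.0% (51.3 to 52.8%) inside a protein-coding gene. The share inside protein-coding genes was 51.7% for Halo-Sox2 only, 42.5% (41.7 to 43.4%) for control only and 52.1% for all union regions. The gene table gives no exons, so exons and introns were not separated. Of the regions in protein-coding genes with a promoter window, 82.1% (81.1 to 83.0%) lay in genes with a region of all 3 lists over such a window, against 83.4% for Halo-Sox2 only and 75.0% (73.7 to 76.2%) for control only. The share over all union regions was 82.9%. At the far ends of protein-coding genes, 2.40% (2.17 to 2.65%) lay within 1 kb, against 1.69% (1.55 to 1.84%) for Halo-Sox2 only and 1.89% for control only. This was near the 2.24% of all union regions, with 2.57% for regions of both Halo proteins and 2.74% for all 3 lists. By chromosome, between 10.8% (chromosome 8) and 13.4% (chromosome 11) of union regions were of this class, with 11.6% on X.

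Single genes held up to 17 of the regions. Of 15662 protein-coding genes with a union region inside, 5133 held at least 1, 3303 of them exactly 1, and 191 held 5 or more. Inside Msi2, which encodes the RNA-binding protein Musashi-2 (chr11:88339382-88718306), 17 of 54 union regions were found with Halo-Sox2a only, 31.5% (20.7 to 44.7%), beside the 12.2% of union regions inside protein-coding genes as a whole. Another 9 regions in Msi2 were found with Halo-Sox2 only, 7 with both Halo proteins, 2 in the control only and 15 in all 3 lists. The 17 lay 34.8 to 337 kb from the start, interspersed with those shared by all lists, and scored 13 to 169 with a median of 46. Snd1, a nuclease and transcriptional coactivator, held 15 of 53. Frmd4a, a scaffold of cell polarity, held 12 of 41, none of its regions being in the control only. Tiam1, an activator of RAC, held 12 of 46.

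**Figure D3:**
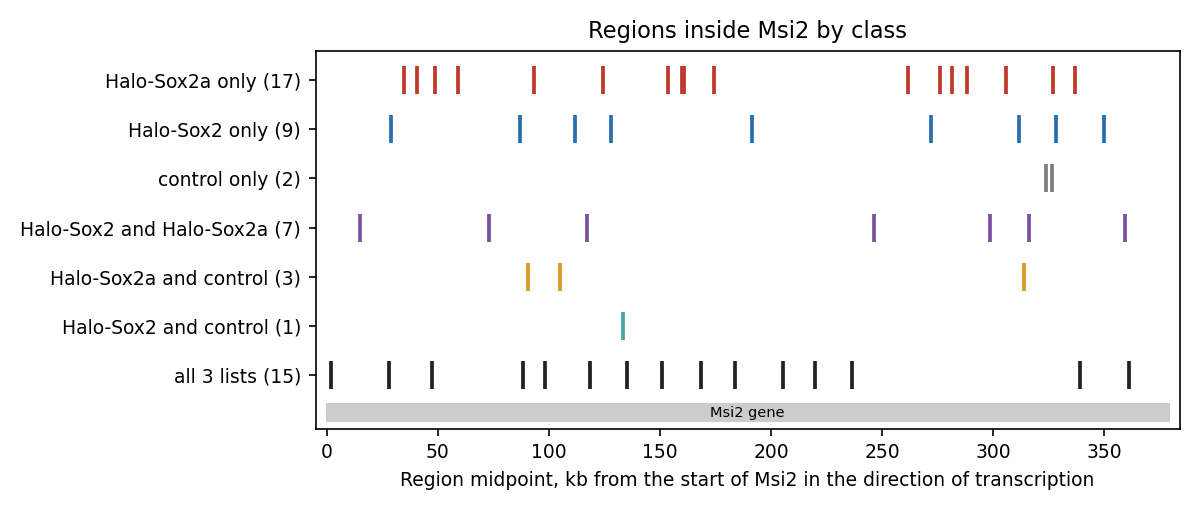
Midpoints of the 54 union regions inside Msi2 (ticks), in kb from its start in the direction of transcription, with 1 row for each class and its number of regions. The 17 regions with Halo-Sox2a only are spread from 34.8 to 337 kb among the 15 of all 3 lists.

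Others among the top 10 were the zinc transporter Slc39a11 (11 of 47), the SOX factor Sox5 (11 of 55), the cAMP phosphodiesterase Pde4d (10 of 89), the GTPase-activating protein Arhgap26 (9 of 59) and the neuron navigator Nav2 (9 of 59). Those named are long genes, from 358 kb (Tiam1) to 1302 kb (Pde4d). Pde4d, with 11.2%, was at the background share. The highest shares among genes with at least 5 of the regions were 5 of 7 in Lasp1, an actin-binding protein, and in Uri1, a prefoldin-like protein, and 5 of 8 in Ubtd1, Zbed4 and Zfp936. These genes were picked for their counts, so the shares are a description. Of 10252 stretches of 100 kb with such a region, 6477 held 1 and 140 held 5 or more. The fullest, at chr3:9100001-9200000, held 8 of its 10 union regions, with scores of 19 to 85, and no protein-coding gene. A stretch at Atp2b4, a plasma membrane calcium pump, held 7 of 10, and one with Hip1r, Vps37b and Abcb9 held 7 of 11.

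At the loci of the core pluripotency factors, the median region of this class ranked below the median region of all 3 lists in the Halo-Sox2a list: percentile 8.91 against 52.3 at Sox2, 32.7 against 70.5 at Pou5f1, 26.2 against 76.5 at Nanog and 26.5 against 70.2 at Esrrb. Over all union regions these medians were 19.3 and 72.2, so the order was that of the classes as a whole and not particular to these loci. The ranges overlapped at Pou5f1, Nanog and Esrrb, where 1 region each of this class was above the list's median score. Within 50 kb of Sox2, 2 of 17 regions were found with Halo-Sox2a only, 1 on each side of its start (chr3:34601279-34601535 and chr3:34691441-34691639), with scores of 32 and 25. Around Pou5f1 they were 4 of 17, the strongest with score 170 at chr17:35539413-35539876, 3456 bp upstream of Cdsn. Around Nanog they were 3 of 21, all upstream of the gene, with scores of 54, 37 and, for the nearest (chr6:122686735-122687118), 158. Around Esrrb, an orphan nuclear receptor of naive cells, 8 of 30 were of this class, 6 of them inside the gene, with scores from 19 to 107. The share of this class over all union regions was 12.2%, and the counts at these small loci are a description.

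Near the genes of 20 lists, the share of regions found with Halo-Sox2a only was set against the 12.2% over all union regions. The lists overlap in a few genes, and their regions within 50 kb were counted once a list. At this distance no list had an interval wholly above the background. The highest shares were near primitive endoderm genes, 17.5% (21 of 120, 11.7 to 25.3%), and naive pluripotency genes, 15.6% (53 of 340, 12.1 to 19.8%). Among the latter, the most were held by Esrrb (8 of 30), Nr5a2 (7 of 21) and Prdm14 (6 of 19), which were picked for their counts. Nr5a2 is a nuclear receptor that can stand in for Oct4 in reprogramming, and Prdm14 a repressor of FGF signalling. Other naive genes held fewer, such as Fgf4 with 1 of 20, Utf1 and Zfp42 with 1 of 17 each, and Nr0b1 with 0 of 4. Within 10 kb, the shares were 10.6% for primitive endoderm and 12.6% for naive pluripotency. Within 100 kb, naive pluripotency (75 of 480, 15.6%, 12.7 to 19.1%) and ribosomal protein genes (273 of 1961, 13.9%, 12.5 to 15.5%) had intervals wholly above 12.2%. When every list was cut to the size of the smallest by score, the background was 9.98% and the intervals of naive pluripotency (14.8%, 11.3 to 19.2%), primitive endoderm (16.8%, 10.8 to 25.3%) and ribosomal protein genes (12.0%, 10.2 to 14.1%) lay above it. The signalling lists lay near the background: WNT response 13.6%, Nodal and BMP 13.3%, FGF and ERK 12.7%, and LIF and STAT3 11.3%. SOX genes stood at 13.9%, POU genes at 9.83%, trophoblast at 15.0%, mesendoderm at 13.4%, formative and primed at 11.7% and chromatin remodellers at 11.9%.

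An interval wholly below 12.2% was found for 4 lists. Near neural genes the share was 6.21% (10 of 161, 3.41 to 11.1%), with none near Pax6, Olig2 or Zic1, which are neural regulators, and 3 each near Nes, an intermediate filament of neural progenitors, and Sox1. Near Hox genes it was 5.59% (8 of 143, 2.86 to 10.7%), near clustered protocadherins 5.41% (6 of 111, 2.5 to 11.3%) and near axon guidance genes 9.07% (46 of 507, 6.87 to 11.9%). Halo-Sox2 only was also below its 24.3% near neural genes (19.3%), Hox genes (17.5%) and protocadherins (7.21%). Regions of all 3 lists made up 54.0%, 44.1% and 62.2% there, against 32.1% over all union regions and 24.5% near axon guidance genes. Regions near axon guidance genes were found with Halo-Sox2 only in 33.9%, above the 24.3% over all union regions, and Robo1, a receptor for SLIT, had 10 regions with Halo-Sox2a only and 19 with Halo-Sox2 only. Within 100 kb the intervals of the neural (9.27%, 6.26 to 13.5%), Hox (9.15%, 5.62 to 14.5%) and axon guidance lists (10.2%, 7.98 to 12.9%) included 12.2%, and that of the protocadherins (5.17%, 2.39 to 10.8%) did not. Of the large families, chemoreceptors stood at 11.4%, Zfp genes at 12.8%, histone clusters at 9.96% and ribosomal proteins at 13.7% (11.9 to 15.8%).

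**Figure D4:**
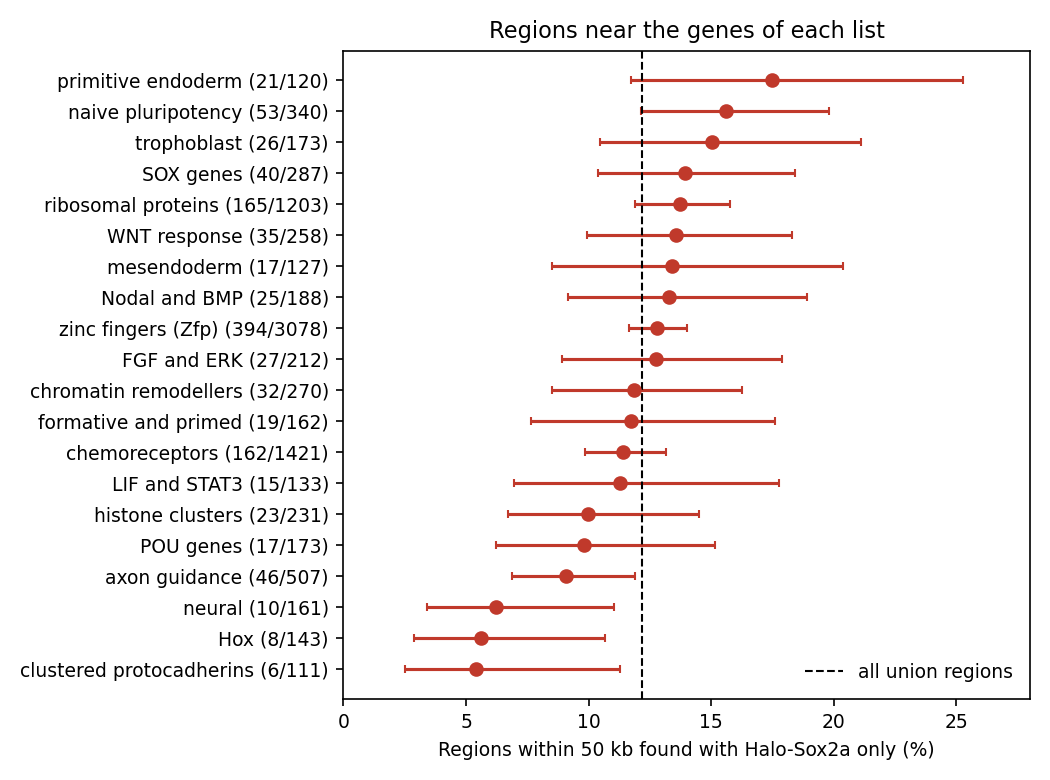
Share of union regions within 50 kb of the genes of each list that were found with Halo-Sox2a only (%, points with Wilson 95% intervals; counts after each name). The dashed line is the 12.2% over all union regions; the bars of 4 lists lie below it and none above it.

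Over all genes, 9.43% of the regions lay within 1 kb of an end, against 17.2% of all union regions. Of the listed genes, 12 had such a region within 1 kb of an end. With the side known, it was the start for Tcf7, a transcription factor of WNT signalling (chr11:52283338-52283532, score 48), and Pou3f3, a neural POU factor (chr1:42694923-42695260, 76). It was the far end for Brd9, a BAF subunit (111), Evx1 (61), Grb2, an adaptor of receptor kinases (53), the semaphorin receptor Plxna2 (145) and Sox15 (43). For Prdm14 (chr1:13127969-13128238, 151), Tfap2c (79), Id1 (43), Gata6 (41) and Zic2 (31) the side is unknown, as these have no entry in the promoter table. Of 1005 miRNA hairpins, 6 were overlapped, by 5 regions: Mir6349 (score 163), the cluster of Mir24-1 and Mir3074-1 (115), Mir137 (35), Mir1934 (34) and Mir6941 (23). The numbers of listed genes and hairpins held by any union region are not given, so both counts are a description.

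Promoters held few of the regions: 243, or 1.52%, overlapped 274 of 32619 promoter windows, which span 250 bases before to 50 after a start. The share of all union regions over a window is not given. Within 1 kb of a start lay 3.45% of the regions, against 11.6% of all union regions. The 274 windows belonged to 250 genes, and 44.2% were of protein-coding genes. The share was 64.5% of all windows, 49.2% with Halo-Sox2 only and 84.9% with a region of all 3 lists. Their median number of CpG was 6 (quartiles 4 and 10), near the 7 of all windows and of control only. It was 21 in windows of all 3 lists, 5 for Halo-Sox2 only and 3 in windows without a peak. After Chit1 (score 163), the highest-scoring regions over protein-coding starts were at Gm7972 (141), Rdh12, a retinol dehydrogenase (131), 1700019N19Rik (101), Csad, an enzyme of taurine synthesis (92), Slc5a4a (92), Tmem102 (91), Rusc1 (89), Gm40847 (82) and the cytokine gene Il6 (82).

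Set against all windows, those with a Halo-Sox2a only region did not show the excess of SOX motifs seen with Halo-Sox2 only. These are shares of whole windows, and densities inside the peaks are given below. CATTGT, on either strand, was in 14.6% (40 of 274, 10.9 to 19.3%), against 12.2% of all windows, 16.9% of windows without a peak and 27.1% (105 of 388, 22.9 to 31.7%) with Halo-Sox2 only. For CATTGTT, whose matches all contain CATTGT, the shares were 1.82% (5 of 274, 0.782 to 4.20%) and 11.3% (44 of 388, 8.56 to 14.9%), with 3.77% of all windows. Control only windows had 9.18% (6.43 to 12.9%) for CATTGT and 4.26% (2.51 to 7.15%) for CATTGTT. Those of Halo-Sox2a and control had 10.3% (7.79 to 13.5%) and 4.58% (2.98 to 6.96%). The intervals of Halo-Sox2a only and Halo-Sox2 only did not overlap for either motif. Windows shared by both Halo proteins lay between, with 15.0% for CATTGT and 5.57% (3.60 to 8.54%) for CATTGTT. The longer motif was in 2.40% and 14.5% of windows with at most 10 CpG, and in 1.63% (4 of 246) and 8.21% (23 of 280) where peaks were limited to percentile 50 or below of their own list. Leaving out windows that were at least 25% made of 20-mers found in 10 or more windows gave 1.84% and 11.9%, and counting 1 window a region gave 2.06% and 12.1%. With lists of equal size the share with Halo-Sox2a only was 4.02% (10 of 249, 2.20 to 7.23%), near the 3.77% of all windows, against 14.7% (41 of 278, 11.1 to 19.4%) with Halo-Sox2 only; the windows of both Halo proteins, with 3.24%, then no longer lay between. Its matches inside the peaks numbered 2 in 46.1 kb for Halo-Sox2a only and 35 in 71.4 kb for Halo-Sox2 only.

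In the same bases inside the peaks, CATTGT itself had 54.2 matches per 100 kb, near the value of 62.0 where both Halo proteins gave a peak. It had 126 with Halo-Sox2 only, 17.6 with the control only and 22.8 in regions of all 3 lists. The composite SOX-OCT motif was in none of the 274 windows, which allows up to 1.38%, and in 2 of all 32619. The OCT motif ATGCAAAT was in 2.55% (1.24 to 5.18%), against 1.75% of all windows.

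The KLF motif GGGTGTGG, bound by Klf4 and its relatives, was in 7.66% (21 of 274, 5.07 to 11.4%), above the 3.57% of all windows and the 3.35% (1.97 to 5.65%) with Halo-Sox2 only, whose interval overlaps. Windows of Halo-Sox2a and control had 5.26% (3.53 to 7.77%) and control only 4.59% (2.75 to 7.56%), and these intervals overlap as well. With 1 window a region the shares of Halo-Sox2a only and Halo-Sox2 only were 6.58% (4.09 to 10.4%) and 3.25% (1.83 to 5.73%), and with lists of equal size 8.43% (5.58 to 12.5%) and 2.52% (1.22 to 5.11%). The SP and KLF motif GGGGCGGGG was in 6.57% (4.20 to 10.1%), against 11.5% of all windows and 22.5% of those with all 3 lists, but in 10.8% (7.56 to 15.3%) with lists of equal size. The AP-1 motif TGACTCA was in 5.84% (9.54% with Halo-Sox2 only), against 5.22% of all windows. AGATAA of GATA-type factors was in 12.0%, against 11.2%, and the E-box CACGTG in 5.84% (3.63 to 9.27%), against 7.20%. ETS (CCGGAAGT) was in 2 windows, 0.730% (0.200 to 2.62%), against 3.91% of all windows. Among windows with at most 10 CpG these shares were 0.481% and 0.998%. The CTCF motif was in 1 window, and NRF1 and ESRRB (TCAAGGTCA) in none, against 0.0123%, 0.978% and 0.426% of all windows. In all, 13 motifs were searched on both strands, and a match is a match of letters, not a measured binding site.

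**Figure D5:**
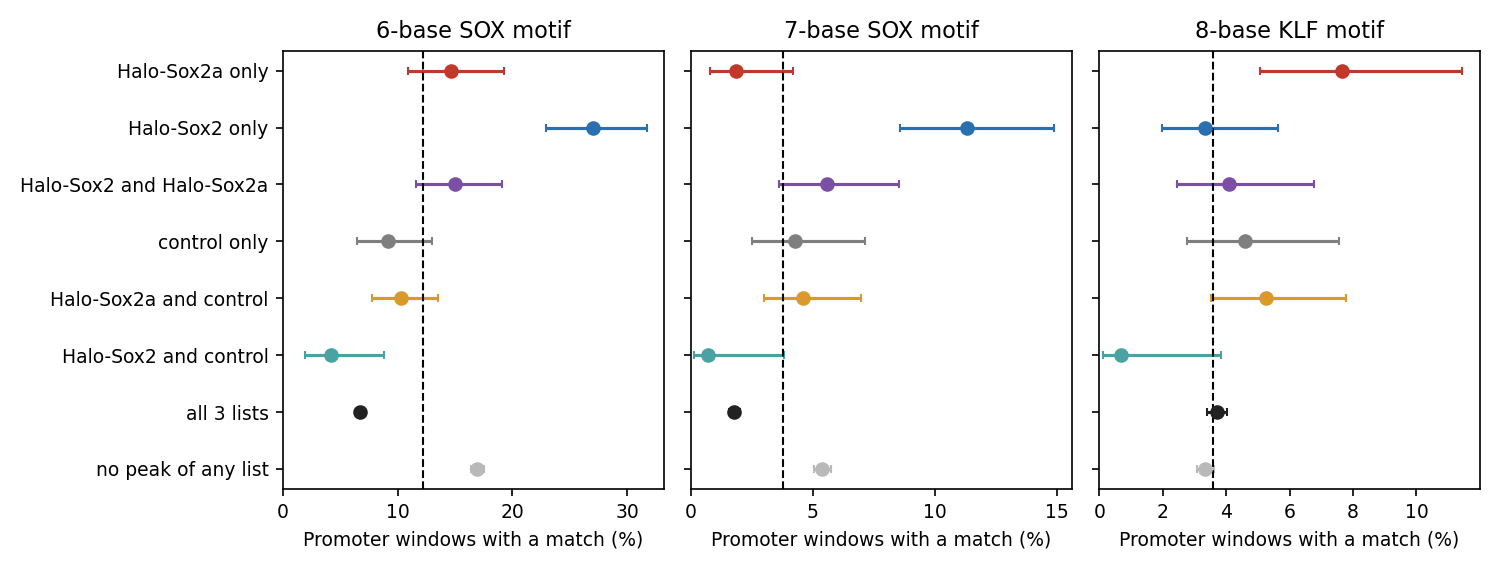
Share of promoter windows with a match (%, points with Wilson 95% intervals) for the 6-base and 7-base SOX motifs and the 8-base KLF motif, by class of the region over the window; dashed lines mark all promoter windows. For the SOX motifs, Halo-Sox2 only lies to the right (27.1% and 11.3%) of Halo-Sox2a only (14.6% and 1.82%).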

How the data were processed

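Peak lists of 3 ATAC-seq libraries were used, 1 each for Halo-Sox2 (88898 peaks), Halo-Sox2a (83995) and control (72638). The submitters' processing notes name build mm10, STAR, SAMtools, MACS2 3.0.0a7, MACS3 and deepTools 3.3.0, with no role, threshold or transposase shift given. The deposited score of each peak, per the files a whole number with no header, has no stated scale and a lowest value of 13 in every list; it was used only within a list. Reads were not analysed here, so depth and its effect on the lists are unknown.

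Peaks were converted to 1-based positions, merged and classed in Python 3.11.15 with pandas 2.3.3 and numpy 2.4.6, and the code was tested on simulated data. Genes, 300-base promoter windows and their sequences, and miRNA hairpins came from RefSeq tables of GRCm38.p6, whose chromosome coordinates are those of mm10; 17274 of 21631 protein-coding genes had a window. No genome sequence was used, so motifs were read in promoter windows only. Regions count by midpoint for genes and by any overlap for windows. No test was run with 1 library a group.

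Genes were named by rule: the 10 highest scores, the 10 genes with most regions and 5 with the highest share, the 10 highest-scoring promoters, the 3 fullest stretches, list genes with a region within 1 kb of an end, 4 loci and the 3 widest regions. Of the genes with most regions, 1 is not reported here. The sequences printed, single list genes and the settings on CpG, coverage, repeats and score for motifs were chosen after values were seen. The regions and lists were chosen with earlier results of these data known.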

Additional observations from a re-analysis of the deposited data

How the results depend on the processing

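No paired analysis was possible because each group has 1 library. Of 170 values recomputed under another setting, 145 stayed within the counting interval of the value reported (counts within 1.5 times) and 25 did not. The cause was not tested except where the setting itself fixes it. Some values could not move: SOX-OCT, NRF1 and ESRRB had no match in the 274 windows, so subsets of these windows also gave 0. Others stayed within a wide interval, such as CATTGTT with 4.02% against 1.82% (0.782 to 4.20%). The tally is therefore a description. The number of regions was 11566 with lists of equal size and fell to 7799 when every list was limited to peaks above its percentile 50, and to 1687 when the Halo-Sox2a list alone was. With these last 2 settings the share within 1 kb of a gene end was 13.6% and 7.94%, against 9.43%, and the share with a peak of another list within 1 kb 6.82% and 11.3%, against 15.8%. Joining peaks across 500 bp gave 8.56% and 7.77% for the same shares, as it removes the near neighbours. The near-peak share was 22.5% when overlap had to reach 50% of the shorter peak, 15.0% at scores of at least 2 times the lowest, and 14.7% with lists of equal size, which also gave a share inside genes of 61.2% and a median percentile of 20.4. A gene-end distance of 2.5 kb gave 19.9%, and protein-coding genes alone 4.65% near an end and 52.0% inside.

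Within 10 kb, primitive endoderm fell to 10.6% and Nodal and BMP to 9.09%. With lists of equal size, where all union regions gave 9.98%, mesendoderm gave 7.96%, chemoreceptors 8.59% and Zfp genes 10.7%, neural genes 4.76% (2.33 to 9.50%), Hox 7.50% (4.00 to 13.6%) and axon guidance 7.79% (5.68 to 10.6%); the last 2 intervals included the background. Naive pluripotency (14.8%), primitive endoderm (16.8%) and ribosomal proteins (12.0%) then lay wholly above it. Among motifs, with lists of equal size GGGGCGGGG was in 10.8% and CATTGTT in 4.02%, against 1.82%, and in windows with at least 150 bases covered GATA was in 6.92%. The single CTCF match was lost (0%) in those windows and at or below percentile 50. Depth limits all of these: a region absent from a list is not shown to be closed there.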
